A study of Mus musculus with 6 samples.

Results

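The genes described here are the calcium-cycling genes of muscle and fat cells: the calcium pumps of the sarcoplasmic and endoplasmic reticulum (Atp2a1, Atp2a2 and Atp2a3, encoding SERCA1, SERCA2 and SERCA3), their small membrane inhibitors sarcolipin (Sln) and phospholamban (Pln), the release channels Ryr1 and Ryr2, the voltage sensor Cacna1s and the calcium buffers Casq1 and Pvalb. They were chosen by symbol, and all 10 were among the 24062 gene symbols of the count table. RNA of brown adipose tissue was sequenced from 6 male C57BL/6 mice aged 12 weeks, 3 labelled FAM195A heterozygous and 3 labelled FAM195A Knock out. Every mouse therefore carried at least 1 disrupted copy of Fam195a by its label, and no wild-type group was analysed here. The sources used here do not give how the allele was made, the housing temperature or whether mice were littermates. Library titles begin with RF for heterozygous 1 and 2 and knockout 1 and 2, and with RE for heterozygous 3 and knockout 3, a prefix whose meaning the labels do not give. Values below follow the order of mice 1, 2 and 3 under each label.

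Calcium is stored in the reticulum by SERCA pumps at the cost of ATP and released through ryanodine receptors. When release and uptake run together, or when sarcolipin lets the pump split ATP without moving calcium, the energy appears as heat. This is known from skeletal muscle, and a cycle of SERCA2 and RYR2 has been described in beige fat cells. Atp2a1, Ryr1, Casq1, Cacna1s and Pvalb are typical of fast skeletal muscle fibres, Ryr2 and Pln are abundant in heart, Atp2a2 is made in nearly all cells with a form typical of slow muscle and heart, and Atp2a3 is typical of blood, endothelial and some epithelial cells.

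Gene counts ran from 18781401 to 25084627 reads per library. Fam195a, the targeted gene, did not separate the groups, with 69.0, 70.5 and 103 CPM (the read count scaled to library size) under the heterozygous label and 50.5, 82.0 and 81.3 under the knockout label (log2 fold change -0.18, adjusted p = 0.896), so directions below are those of the libraries labelled knockout. Brown fat markers were present throughout, and all 12 had reads. Their sum was 21260 to 22154 CPM under the heterozygous label against 21148 to 26361, with Fabp4 alone at 9141 to 11670 and 9933 to 12355. The median log2 fold change was -0.03. By edgeR 1 gene was called higher, the elongase Elovl3 (log2 fold change 1.03, adjusted p = 0.0418), against 0.0526% of all genes tested. Without overlap, 2 of the 12 were higher (Elovl3 and Cidea), against 8.11% of all genes tested, and 0 were lower, against 9.89%. Single markers, picked out after their values were seen, were less even than the sum. Dio2 had 463, 541 and 77.7 CPM, then 301, 269 and 94.6. Ppargc1a had 429, 494 and 87.4, then 259, 262 and 64.2. Both, and Prdm16 (67.4, 50.6 and 15.5, then 35.0, 47.6 and 26.9), were lowest in the RE-titled library of each group. Cidea was highest there (3335 and 4529). Ucp1, the uncoupling protein of brown fat, ranged over 2963 to 5290 and 1647 to 5693 CPM. Skeletal muscle RNA was present too, at levels that did not overlap between the groups. The 16 fast muscle markers, sarcomere genes and the muscle enzymes Ckm, Pygm and Eno3, summed to 8680, 19319 and 25488 CPM under the heterozygous label and to 5435, 3179 and 3191 CPM under the knockout label. All 16 were lower without overlap, against 9.89% of all genes tested, though none was called by edgeR. DESeq2 called all 16 lower, against 4.46% of the genes it gave an adjusted p, and limma-voom called 0. Examples of the 16 are Myh4, the myosin of the fastest fibres (log2 fold change -2.23), and Acta1, skeletal muscle actin (-2.24). The 12 slow and cardiac muscle markers summed to 443, 2287 and 2337 against 391, 284 and 56.8 CPM, and 9 were tested (median -2.77, 7 lower without overlap, against the same 9.89%), among them the slow myosin Myh7 (-2.97, adjusted p = 0.211). Of this list, edgeR called 0 and DESeq2 2, both lower. The median and the count without overlap include Myh6 (20.1, 1.66 and 1.20 CPM, then 0.493, 0.390 and 0.0923). Myh6 reached the read filter, 0.466 CPM in 3 libraries, through the heterozygous-labelled group, as knockout 2 and 3 lay below it. Smooth muscle markers (5 tested, median -0.28) summed to 171 to 213 against 120 to 167 CPM, and Schwann and nerve markers (4 of 5 tested, median 0.08) to 151 to 224 against 183 to 251 CPM. In bulk tissue, fewer cells of a type and less RNA per cell cannot be told apart.

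Of the 10 genes, 9 had enough reads to be tested, and none passed edgeR's quasi-likelihood test at an adjusted p of 0.05 over all 13300 genes tested, where 0.534% of genes were called lower and 0.0526% higher. At an unadjusted p of 0.05, 8 of the 9 were lower under the knockout label and 1, Atp2a3, was higher, against 8.04% and 4.05% of all genes tested. In 7 genes every knockout-labelled library lay below every heterozygous-labelled one, and in Atp2a3 above (9.89% and 8.11% of all genes tested). Both lower counts include Sln, which reached the read filter of 0.466 CPM in 3 libraries through the heterozygous-labelled group, as knockout 1 lay below it. DESeq2 called 6 lower (Atp2a1, Ryr1, Cacna1s, Casq1, Pvalb and Sln) and Atp2a3 higher, beside 4.46% and 0.818% of the 14299 genes it gave an adjusted p. By limma-voom with quality weights, Atp2a3 alone was called, as higher, where 1.24% of genes were called lower and 0.218% higher. Without heterozygous 1, the heterozygous-labelled library with the least muscle RNA, edgeR called the same 6 genes lower as DESeq2 did and did not call Atp2a3 (2.81% lower and 0.14% higher of the 13567 genes then tested). With the title prefix as a covariate, Atp2a3 alone was called (1.83% lower, 0.504% higher).

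**Figure D1:**
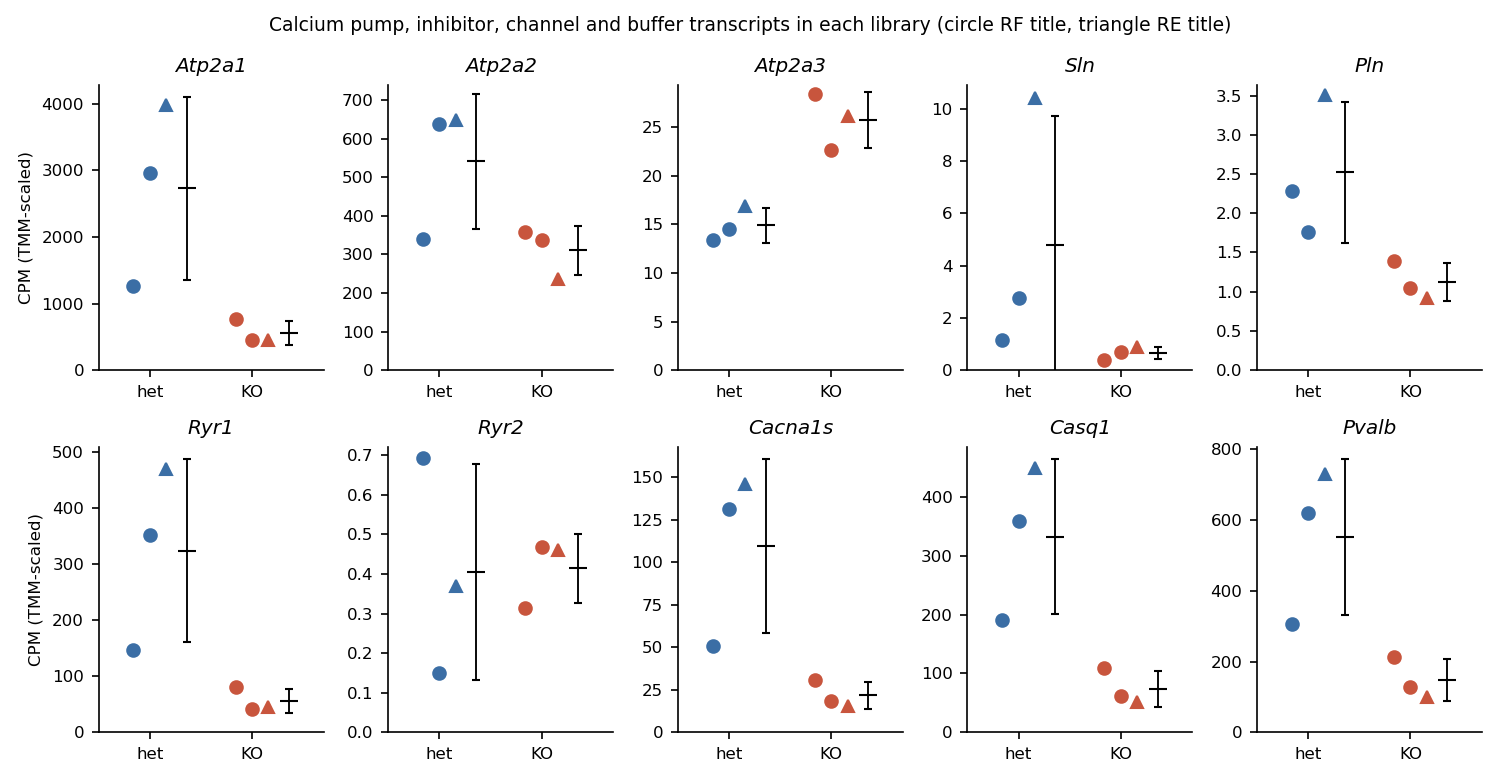
Level of each gene in each library, in CPM on linear axes that start at 0. Blue marks heterozygous-labelled and red knockout-labelled libraries, circles RF titles and triangles RE titles, and black bars the mean and SD of 3 libraries (the lower end for Sln is cut at 0). Atp2a3 is the gene with all 3 knockout-labelled libraries on top, at 22.7 to 28.4 CPM.

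Of the 3 pumps, Atp2a1 and Atp2a2 had a lower mean and Atp2a3 a higher mean under the knockout label, none of them past the test. Atp2a1, the pump of fast muscle fibres (chr7:126445858-126463108, minus strand, GRCm38), measured 1257, 2955 and 3976 CPM under the heterozygous label, then 768, 454 and 455 CPM under the knockout label. The groups did not overlap, but the 3 heterozygous-labelled libraries spanned a 3.16-fold range. The log2 fold change was -2.29 (SE 0.443, 95% interval -3.33 to -1.25, adjusted p = 0.0754), a level 4.88-fold lower. Among RF titles it was -1.78, and between the RE titles -3.13.

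Atp2a2, the general pump and the pump of slow muscle (chr5:122453513-122502225, minus strand), had 339, 637 and 647 CPM under the heterozygous label and, in the other mice, 357, 336 and 237. Heterozygous 1 lay inside the knockout-labelled range, so the groups overlapped. The log2 fold change was -0.80 (SE 0.284, 95% interval -1.47 to -0.14, adjusted p = 0.29), with -0.49 among RF titles and -1.45 in the RE pair. A count per gene does not tell the muscle form of its transcript from the form made in other cells.

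Atp2a3, the pump of blood and endothelial cells (chr11:72961169-72993044, plus strand), was low in all mice, with 13.4, 14.5 and 16.9 CPM (heterozygous label) against 28.4, 22.7 and 26.2 (knockout label). Of the 10 genes it varied least within each group, 1.26-fold among heterozygous-labelled and 1.25-fold among knockout-labelled libraries. All 3 knockout-labelled libraries lay above all heterozygous-labelled ones. The log2 fold change of 0.79 (SE 0.157, 95% interval 0.42 to 1.15) corresponds to a 1.72-fold higher average level and did not pass in edgeR (adjusted p = 0.0755). It passed in DESeq2 (adjusted p = 0.00171), limma-voom (adjusted p = 0.0384) and edgeR with the title prefix (adjusted p = 0.0333). The values were 0.87 within RF titles (edgeR, adjusted p = 0.0929) and 0.62 in the RE pair. They were 0.71 to 0.89 when single libraries were left out, and none of those edgeR runs passed (adjusted p = 0.14 to 0.243, with 0.149 without heterozygous 1). The 6 markers of endothelial and immune cells had a median log2 fold change of 0.06. All 6 overlapped between groups, where 9.89% of all genes tested were lower and 8.11% higher without overlap. None had an unadjusted p under 0.05 by edgeR, against 8.04% lower and 4.05% higher of all genes tested. Their sum was 448 to 562 CPM against 517 to 540. The part of these cells in the level of Atp2a3 was not tested.

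Scaled to exon length, Atp2a1 made up 84.3%, 87.3% and 90.1% of the reads of the 3 pumps under the heterozygous label, and 75.0%, 65.5% and 72.1% under the knockout label. Atp2a2 made up 15%, 12.4% and 9.66%, then 23.0%, 32.0% and 24.7%. Atp2a3 stayed the smallest part, at 0.289% to 0.68% and then 2.09% to 3.14%. Both smaller shares were higher in all 3 knockout-labelled libraries while the summed, length-scaled level of the pumps went from between 429 and 1270 to between 181 and 295 CPM per kilobase. Within a library, the log2 ratio of Atp2a2 to Atp2a1 was -2.24 ± 0.365 and -0.83 ± 0.351 (SD, n = 3 each), a difference of 1.41 with no overlap (two-sided exact permutation test over the libraries, p = 0.1, which is the lowest value 3 against 3 can give; adjusted p = 0.2 over 8 ratios). That difference was 1.28 among RF titles and 1.68 in the RE pair.

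**Figure D2:**
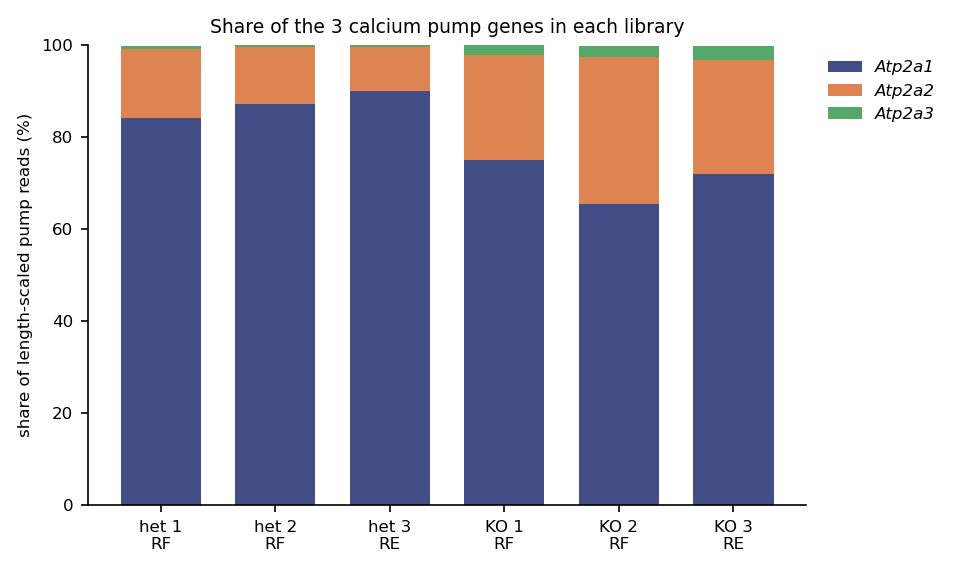
Share of each pump gene in the length-scaled reads of all 3 pump genes, in percent, in each library (het, heterozygous-labelled; KO, knockout-labelled; title prefix beneath). Atp2a1 holds 84.3% to 90.1% in the heterozygous-labelled libraries and 65.5% to 75.0% in the knockout-labelled ones.

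The promoter windows of Atp2a1, of Casq1, whose level followed it, and of Atp2a3, which went the other way, are shown as examples of genes that lay on opposite sides. They are RefSeq windows on GRCm38.p6, written 5′ to 3′ on the gene's strand and ending just before the start site (for Atp2a1, before the first base that GENCODE places in the gene). Capitals mark CANNTG, the E-box that muscle factors of the MyoD family bind.
Atp2a1 (chr7:126463109-126463323, minus strand): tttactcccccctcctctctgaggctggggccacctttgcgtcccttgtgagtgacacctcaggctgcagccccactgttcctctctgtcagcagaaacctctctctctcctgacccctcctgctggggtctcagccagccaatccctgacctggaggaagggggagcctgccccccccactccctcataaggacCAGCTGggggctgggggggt
Casq1 (chr1:172219896-172220145, minus strand): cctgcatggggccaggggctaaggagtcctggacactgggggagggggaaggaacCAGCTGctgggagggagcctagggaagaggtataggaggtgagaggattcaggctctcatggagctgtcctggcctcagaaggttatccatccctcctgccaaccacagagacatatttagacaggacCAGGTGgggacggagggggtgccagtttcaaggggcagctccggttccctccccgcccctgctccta
Atp2a3 (chr11:72960919-72961168, plus strand): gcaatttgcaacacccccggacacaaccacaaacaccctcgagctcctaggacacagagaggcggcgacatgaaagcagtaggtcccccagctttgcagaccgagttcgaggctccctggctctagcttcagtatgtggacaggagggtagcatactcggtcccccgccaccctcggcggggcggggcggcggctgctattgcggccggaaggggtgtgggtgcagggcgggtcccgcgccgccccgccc

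In the 250 bases before the start, Atp2a1 had 1 CANNTG, Casq1 2 and Atp2a3 0. The motif did not follow the direction of the difference: Ryr1 and the outer Pvalb start had 0, Cacna1s and Ryr2 had 2, and Pln and the inner Pvalb start had 1. Of the 10 genes, 8 matched the table by symbol, with 9 windows because Pvalb has 2 starts, and 6 of the 9 held CANNTG. It is common: 66.2% of all 32851 windows of that length held it (both strands; the motif is its own reverse complement). A MEF2 match, read on both strands, was in 1 of the 9 windows, that of the outer Pvalb start, against 2.92% of all windows. TATAAA was in 1, that of Pln, against 12.4%, and the CArG box of serum response factor in 0, against 1.47%. No match of these motifs overlapped another in the 9 windows. These are matches of letters and not binding sites.

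The inhibitors were rare transcripts. Sln, which uncouples the pump's ATP use from calcium transport (chr9:53850164-53854560, plus strand), had 22, 55 and 226 reads under the heterozygous label and 9, 18 and 19 under the knockout label. In CPM these were 1.17, 2.77 and 10.4, then 0.403, 0.702 and 0.877. The groups did not overlap, and heterozygous 3 stood far above the rest of its group, which spanned an 8.89-fold range. The log2 fold change was -2.85 (SE 0.813, 95% interval -4.77 to -0.94, adjusted p = 0.174) and -1.57 without heterozygous 3. It was -1.82 within RF titles and -2.99 in the RE pair. Sln reached the read filter, 0.466 CPM in 3 libraries, through the heterozygous-labelled group, as knockout 1 lay below it.

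Pln, the inhibitor of SERCA2 in heart and slow muscle (chr10:53337667-53345987, plus strand), had 43, 35 and 76 reads against 31, 27 and 20. In CPM these were 2.29, 1.76 and 3.51, then 1.39, 1.05 and 0.923. The groups lay close together without overlap. The log2 fold change was -1.17 (SE 0.353, adjusted p = 0.2), -0.73 within RF titles and -1.49 in the RE pair. In GENCODE, 1644 of its 2759 exonic bases are also exon of Gm47644 on the other strand, and without a known strand setting the reads of the pair cannot be told apart.

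Relative to their pumps, neither inhibitor separated the groups. The log2 ratio of Sln to Atp2a1, with 0.5 CPM added to both, was -9.55, -9.82 and -8.51 under the heterozygous label, then -9.73, -8.56 and -8.37. The difference of 0.40 was smaller than the SD of either group (0.694 and 0.738; exact permutation test, two-sided p = 0.6, adjusted p = 0.8). It depended on the CPM added, at -0.02 with 0.1 CPM and 1.07 with 2 CPM, and was 0.83 without knockout 1 and 0.14 without heterozygous 2. The 0.5 CPM added lies within the range of Sln itself under the knockout label, 0.403 to 0.877 CPM. For Pln to Atp2a2 the difference was -0.10 (p = 0.8 by the same exact test, adjusted p = 0.9; 0.24 with 2 CPM added and 0.17 without heterozygous 1).

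Of the ryanodine receptors, only Ryr1 was present in more than traces. Ryr1, the channel of skeletal muscle (chr7:29003344-29125179, minus strand), reached 148, 353 and 471 CPM under the heterozygous label against 80.6, 42.0 and 45.8. With no overlap between groups, its log2 fold change was -2.53 (SE 0.458, 95% interval -3.61 to -1.45, adjusted p = 0.0719), or 5.78-fold lower. It was -2.03 within RF titles and -3.35 in the RE pair.

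Ryr2, the heart channel and the partner of SERCA2 in the cycle described in beige fat (chr13:11553102-12106945, minus strand), had 13, 3 and 8 reads under the heterozygous label and 7, 12 and 10 under the knockout label. This is 0.151 to 0.693 CPM over the 6 libraries, with the groups overlapping, and the gene did not reach the filter. Tested without the filter, its log2 fold change was 0.05 (SE 0.581, 95% interval -1.26 to 1.36, adjusted p = 0.981), so that at this depth a change of more than 2-fold either way was within the interval. Of the heart genes in the slow and cardiac list, Tnni3 had 0.202 to 0.448 CPM, and Mybpc3 was at 0 reads in all libraries but knockout 1 (0.0896 CPM). Tnnt2 had 0.373, 1.06 and 2.58 CPM under the heterozygous label, then 0.358, 0.195 and 0.323. Actc1, cardiac actin, was higher at 2.40, 2.42 and 9.14, then 1.30, 0.546 and 1.85. Myh6, the atrial myosin, had 20.1 CPM in heterozygous 1 and 1.66 or less in the other 5 libraries. These genes were named after their values were seen, and their part in the levels of Ryr2 and Pln was not tested.

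Cacna1s, the sensor in the surface membrane that opens RYR1 (chr1:136052750-136119822, plus strand), had 50.9, 131 and 146 CPM against 31.0, 18.6 and 15.5. Its groups did not overlap (log2 fold change -2.33, SE 0.439, adjusted p = 0.0736; -1.88 within RF titles, -3.19 in the RE pair). GENCODE places 1212 of its 6411 exonic bases also in Gm37759 on the other strand. For Ryr1 (299 bases with Gm26604, 50 with Gm44408), Casq1 (156), Atp2a2 (83) and Atp2a1 (44) such antisense overlap was small. The proportion of channel to sensor did not separate the groups: the log2 ratio of Ryr1 to Cacna1s was 1.55 ± 0.132 and 1.35 ± 0.192 (SD, n = 3 each), with overlapping groups and a difference of -0.20 (exact permutation test, two-sided p = 0.3, adjusted p = 0.48).

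Both buffers were lower without overlap and without passing the test. Casq1, which binds calcium inside the reticulum of fast fibres (chr1:172209894-172219868, minus strand), had 190, 358 and 449 CPM under the heterozygous label, then 109, 61.4 and 51.1 (log2 fold change -2.17, SE 0.397, adjusted p = 0.0719; -1.68 within RF titles, -3.12 in the RE pair). Pvalb, parvalbumin, which speeds relaxation by binding calcium in the cytosol (chr15:78191114-78206400, minus strand), had 305, 621 and 730 CPM, then 213, 129 and 99.1 (log2 fold change -1.91, SE 0.398, adjusted p = 0.0789; -1.44 and -2.87). In both genes knockout 1 was the highest of its group and heterozygous 1 the lowest of its own, and the groups did not overlap. The ratio of Casq1 to Atp2a1 differed by 0.03 on the log2 scale (SDs 0.221 and 0.174; exact permutation test, two-sided p = 0.9, adjusted p = 0.9), a sign that turned when single libraries were left out (-0.06 without heterozygous 3). Pvalb was slightly higher relative to Casq1 in all 3 knockout-labelled libraries (0.95 to 1.06 against 0.68 to 0.80; difference 0.27, p = 0.1 by the same exact test, adjusted p = 0.2).

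Per kilobase of exon, the heterozygous-labelled means ran from Atp2a1 (785 CPM per kilobase), Pvalb (530), Casq1 (180) and Atp2a2 (102) to Ryr1 (21), Cacna1s (17.1), Sln (3.64), Atp2a3 (3.24), Pln (0.914) and Ryr2 (0.0222). The ranges of 4 neighbouring pairs overlapped: Atp2a1 with Pvalb, Casq1 with Atp2a2, Ryr1 with Cacna1s, and Sln with Atp2a3. In the knockout-labelled libraries Atp2a2 (58.8) came before Casq1 (40.0), and Atp2a3 (5.59) before Ryr1 (3.63) and Cacna1s (3.39), but each of these neighbours overlapped in range except Casq1 with Atp2a3. Atp2a1 (161) and Pvalb (141) stayed first, and Sln (0.501), Pln (0.407) and Ryr2 (0.0227) last, with Sln and Pln overlapping.

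The genes typical of fast muscle differed from other fast muscle RNA by at most 0.34 on the log2 scale, and Atp2a2, Atp2a3 and Pln by more than 1. The mean log2 level of the 16 fast muscle markers was 8.55, 9.73 and 10.21 under the heterozygous label, then 7.87, 7.15 and 7.21, a difference of -2.09. Set against that mean within each library, Atp2a1 was at 1.75, 1.80 and 1.75, then 1.71, 1.68 and 1.62. Its remaining difference was -0.09, without overlap, and that of Ryr1 -0.34, without overlap. Casq1 (-0.07), Cacna1s (-0.14), Pvalb (0.20) and Sln (0.31) overlapped between groups. Against the same muscle mean, Atp2a2 was higher in all 3 knockout-labelled libraries, by 1.32, as were Pln by 1.22, Ryr2 by 2.14 and Atp2a3 by 2.85. Every difference without overlap has p = 0.1 by the two-sided exact permutation test, the smallest possible, and an adjusted p of 0.167 over 10 genes. Such a ratio shows unequal change and not which of its parts moved, and for Ryr2 and Pln it rests on few reads. The part of muscle RNA in the genes' own differences was not tested.

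**Figure D3:**
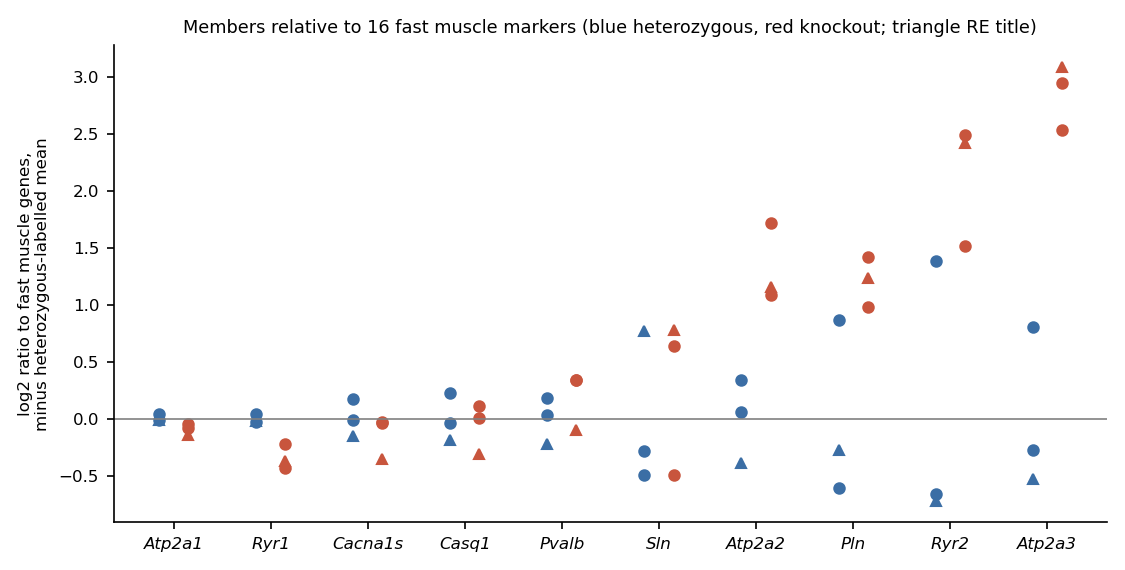
Log2 level of each gene minus the mean log2 level of 16 fast muscle markers in the same library, shown relative to the heterozygous-labelled mean (blue heterozygous-labelled, red knockout-labelled; triangles RE titles). Atp2a1, Cacna1s, Casq1 and Pvalb lie near 0 in both groups, and Atp2a3 is highest in the knockout-labelled libraries, by 2.85.

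Other genes of the same machinery, none of them among the 10 above, were lower in like measure. Of 19 muscle calcium genes, 18 were in the table and 17 were tested (Strit1 was not matched and Ryr3 did not reach the filter). None was called by edgeR. At an unadjusted p of 0.05, 16 were lower, against 8.04% of all genes, and 15 were lower without overlap, against 9.89%. DESeq2 called 16 lower, against 4.46%, and limma-voom 0. These counts include Mrln, the pump inhibitor myoregulin, whose 0.448, 0.351 and 0.138 CPM under the knockout label all lay below the read filter, so that it was tested only through the heterozygous-labelled libraries (0.907, 2.07 and 1.89 CPM). Their median log2 fold change was -2.09, beside -2.17 for the 9 tested pump, channel and buffer genes, -2.15 for the fast muscle markers and 0.02 for all genes tested. Srl, the reticulum protein sarcalumenin, had 143, 249 and 283 CPM, then 80.6, 56.4 and 49.4 (log2 -1.86, adjusted p = 0.0581). Cacng6, a calcium channel subunit (-2.27, adjusted p = 0.0581), Hrc, a calcium-binding protein of the reticulum lumen (-2.38), Jph2, which ties the reticulum to the surface membrane (-2.18), and Trdn, which links Casq1 to the release channel (-2.31), followed. Cacng6 and Srl were called when the read filter was dropped (adjusted p = 0.0365 and 0.0451) and when the title prefix was in the fit. Casq2, the buffer of slow muscle and heart, was at -1.90 with overlapping groups. S100a1, picked out after its values were seen, was the exception: at 424 to 515 and 372 to 567 CPM it showed a log2 fold change of 0.01.

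Calcium genes that most cell types express had a median log2 fold change of -0.16, in a range of -0.81 to 1.60. Of 31 tested, none was called by edgeR. At an unadjusted p of 0.05, 6 were lower and 2 higher, against 8.04% and 4.05% of all genes, and 7 were lower and 1 higher without overlap, against 9.89% and 8.11%. The 2 higher ones, named after their values were seen, were Orai2, a store-operated channel (1.12, 1.56 and 2.17 CPM, then 4.3, 1.64 and 8.86, overlapping; log2 1.60, adjusted p = 0.333), and Fkbp1a, which binds the release channel (0.34, adjusted p = 0.364). The inositol trisphosphate receptor Itpr1 (0.17, adjusted p = 0.92) and the store sensor Stim1 (-0.06, adjusted p = 0.973) did not separate the groups. Letm1, an ion exchanger of the inner mitochondrial membrane, had 377, 311 and 345 CPM against 178, 216 and 194 (log2 -0.81, SE 0.141, adjusted p = 0.0631). Mcu, the uniporter pore, was at -0.59 (adjusted p = 0.143) and Atp2b1, the calcium pump of the surface membrane, at -0.61 (adjusted p = 0.107), with no overlap in any of these 3. DESeq2 called Letm1 and Atp2b1 lower, and so did edgeR with the title prefix, while limma-voom called Letm1 lower.

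**Figure D4:**
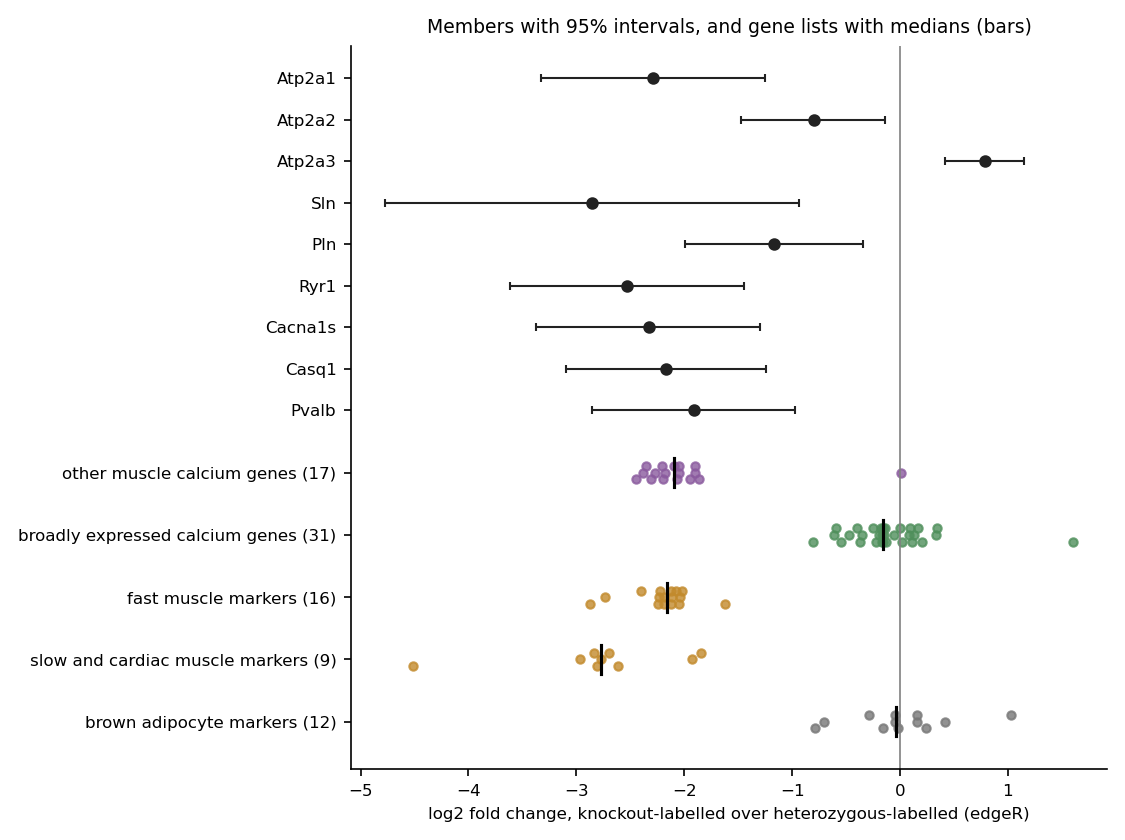
Log2 fold change of the knockout-labelled over the heterozygous-labelled libraries (edgeR, 3 against 3): black points with 95% intervals for the 9 tested genes, and coloured points with black median bars for gene lists, the number tested in brackets. The median is -2.09 for the other muscle calcium genes and -0.16 for the broadly expressed ones.

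The genes closest in pattern were found from the log2 level over the 6 libraries, centred on its mean, as the smallest root mean square difference among 11524 other tested genes, or 11525 for Pln and Ryr2. That pattern includes the difference between the groups, so the fold changes of the genes found follow from how they were picked. For Atp2a1 they were Rbm24, Pygm, itself a fast muscle marker above, Hrc and Dusp27, at 0.0511 to 0.0751, small beside its own spread of 1.22. For Atp2a2 they were Unc45b, Plec, Mapk12 and Dennd4b (0.0767 to 0.123, own spread 0.524). For Atp2a3, they were Fam49a (0.065), Crlf2, Efemp2 and Rasa3 (0.138; own spread 0.406), each with a log2 fold change above 0. Sln had no close match: Dkk2, Tbx15, Ip6k3 and Bdh1 lay at 0.297 to 0.331. For Pln they included Pard6g (0.133), Nrep (0.138) and Mamstr (0.153). For Ryr2, whose profile rests on 3 to 13 reads a library, they were H2-K1, 5430416N02Rik, 2810055G20Rik and Psmb8, at log2 fold changes of -0.11 to 0.14.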

How the data were processed

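The authors deposited read counts per gene symbol, 1 column per mouse, in the layout of HTSeq. The submitters' processing notes list the aligners STAR 2.7.2b and Bowtie2 2.3.4.3, besides HTSeq, edgeR, SAMtools 1.9, Trim Galore and the build mm10, without roles. The annotation and strand setting used for counting are unknown from these notes. The 5 summary lines were left out. Libraries were grouped by genotype label and numbered in accession order, which pairs nothing. All library pairs differed by more than sampling noise (chi-square over its degrees of freedom from 41.2 to 326). Where nothing names separate litters, p-values measure the spread between these mice.

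Tests across all genes used edgeR 4.0.16 in R 4.3.3: TMM, filterByExpr (minimum count 10, total 15), robust quasi-likelihood F test on genotype, Benjamini-Hochberg adjustment at 0.05. Ratios add 0.5 CPM. RE-pair values are 1 library against 1, with 0.5 CPM added and no test. Exon lengths and gene positions are from GENCODE M21 (GRCm38, the assembly of mm10), as the union of basic-set exons, and may differ from the annotation used for counting. Promoters are from RefSeq. Alternatives used DESeq2 1.42.0, limma 3.58.1 and the settings named in the closing section.

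The fit was tested on simulated data, where it missed most of the smaller changes and its share of false calls was above the threshold. The members, gene lists and the rule for named genes (all members; in the 2 calcium lists the called genes, else the 4 with the smallest p, and 7 fixed genes; the 4 nearest genes in pattern for 6 members) were chosen with earlier results of these data known. A few genes that this rule names are not reported here.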

Additional observations from a re-analysis of the deposited data

How the results depend on the processing

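None of the 9 tested genes changed direction under any alternative run, but calls changed with tool and library. No paired analysis was possible because the labels give no shared replicate numbers. Of the 10 genes, edgeR tested 9 and called 0. Calls among them were 7 by DESeq2, 6 at an adjusted p of 0.1, 1 by limma-voom, 1 with the title prefix, and 0 to 6 with 1 library left out (6 without heterozygous 1). The whole table gave 78 calls among 13300 genes tested, and DESeq2 755 among 14299. Among the same 13300 genes, 500 were called at an adjusted p of 0.1, 311 with the title prefix and 194 by limma-voom. There were 132 calls in the RF-titled libraries alone, and 0 to 400 with 1 library left out (400 when heterozygous 1 was dropped, 8 for heterozygous 3, 0 each for heterozygous 2, knockout 1 and knockout 2). The other muscle calcium genes gave 0, 16 by DESeq2, 13 at an adjusted p of 0.1, 2 with the title prefix, 2 without a filter, and 0 to 16 with 1 library left out (16 without heterozygous 1). Broadly expressed calcium genes gave 0, 3 by DESeq2, 3 with the title prefix, 2 by limma-voom and 2 at an adjusted p of 0.1. RLE scaling, library size only and muscle genes left out of library sizes called none of the 10. Signs of small ratios turned: Sln to Atp2a1 at -0.02 and Sln to the fast muscle genes at -0.11 with 0.1 CPM added, Pln to Atp2a2 at 0.24 with 2 CPM added and -0.44 to 0.17 with 1 library left out, Casq1 to Atp2a1 at -0.06 to 0.15 and Casq1 to the fast muscle genes at -0.16 to 0.06 with 1 library left out. The cause was not tested. Low counts limit Sln, Pln and Ryr2.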
